A study of Mus musculus with 16 samples.

Results

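The genes of the large subunit of the cytosolic ribosome were followed in mouse liver from total mRNA to the mRNA held by ribosomes. They were chosen by name alone, as every gene row called Rplp0 to Rplp2 or Rpl with a number and, where present, a paralogue letter, pseudogene rows left out. This gave 53 of the 24539 genes in the count tables, and 50 of them had enough reads to be tested. Livers came from male C57BL/6 mice aged 16 weeks kept for 8 weeks on high-fat food alone (HF) or on the same food to which betaine, a methyl donor, was added (HB); no group on ordinary food was analysed here, so every value below is from a fat-fed animal. Each diet had 2 libraries of poly(A) total mRNA, 2 of mRNA from ribosome-nascent chain complexes (RNC, ribosomes pelleted through sucrose with the mRNA they are reading), and 2 of RNA fragments enriched with an antibody to m6A, a methyl mark on adenosines of RNA. The labels state that each mRNA and RNC sample was a pool from 2 independent experiments, so every p-value measures how these pools differed and not how single mice differed.

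The large subunit joins amino acids at its peptidyl transferase centre, lets the new chain out through an exit tunnel, and recruits translation factors at a flexible stalk of P proteins. Messages for nearly all its proteins begin with a run of pyrimidines, the 5′ terminal oligopyrimidine (TOP) tract, through which cells can move them as a group between ribosomes and an untranslated pool when nutrients and the kinase mTOR change. In liver, feeding is known to shift these messages onto ribosomes and fasting to take them off.

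Runs of pyrimidines were common near the annotated starts, though the search did not ask that a run begin at the start, as a TOP tract does. RefSeq promoter windows (GRCm38.p6) matched 41 of the 53 members, and 36 of them (87.8%) held a run of at least 8 C or T letters within 50 bases of the start on the sense strand, against 37.0% of 7561 expressed genes, where a gene counts if any of its windows holds the run; of all 32851 promoters, counted 1 by 1, 35.7% did. On the opposite strand the share was 34.1% of members, 39.5% of expressed genes and 38.1% of promoters. The letters CTTTCC were found on the sense strand in 41.5% of members, 5.48% of expressed genes and 4.69% of promoters, and on the other in 2.44%, 4.70% and 4.47%. This motif and CTCTTT (sense strand, 29.3%, 4.21% and 3.99%; other strand, 0 members, 2.83% and 3.84%) can lie within the run itself. The 30 bases around the start are shown for members that recur below, to set genes with a long run beside genes without one; capitals mark the longest run of at least 6 pyrimidines, and the first 15 bases lie upstream of the annotated start.
Rpl7a: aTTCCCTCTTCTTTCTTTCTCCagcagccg
Rpl15: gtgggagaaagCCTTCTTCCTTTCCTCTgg
Rpl13a: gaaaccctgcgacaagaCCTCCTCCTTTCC
Rpl28: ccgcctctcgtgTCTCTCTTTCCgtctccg
Rplp2: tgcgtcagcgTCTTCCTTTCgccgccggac
Rpl38: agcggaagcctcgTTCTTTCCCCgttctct
Rpl41: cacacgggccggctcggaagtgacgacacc
Rpl5: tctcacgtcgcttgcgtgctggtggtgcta
They lie at chr2:26910792-26910821 (Rpl7a, plus strand), chr14:18270972-18271001 (Rpl15, minus), chr7:45128731-45128760 (Rpl13a, minus), chr7:4792950-4792979 (Rpl28, plus), chr7:141447636-141447665 (Rplp2, plus), chr11:114668565-114668594 (Rpl38, plus), chr10:128549154-128549183 (Rpl41, minus) and chr5:107900513-107900542 (Rpl5, plus). The run was 21 letters long in Rpl7a, 17 in Rpl15 and 13 in Rpl13a. Rpl41 and Rpl5 had no such run inside these 30 bases, although both had one of at least 8 letters in the wider window. The genes shown are a choice, and other members also lacked such a run in these 30 bases. Those without it included Rpl41 and Rpl5, with HF log2 ratios of RNC over mRNA of -1.99 and -2.09. They also included Rplp0, Rpl11 and Rpl10, at -6.62, -6.88 and -7.38. Whether the run goes with the ratio was not tested. A match is a description of the annotated start, which may differ from the start used in liver.

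Depth differed between kinds of library. Totals ran from 11437462 to 22492813 reads in mRNA and from 5778439 to 8659310 in RNC. Over the members, the 2 HB RNC libraries differed by a chi-square of 1.03 per gene (1.40 over all genes), where the HF RNC libraries gave 39.7, the HF mRNA libraries 34.8 and the HB mRNA libraries 362. The HB RNC pair thus differed by no more than sampling noise in the members; its counts were summed and counted as 1 sample, and the HB RNC group has no replicate of its own. Of the marker lists checked, the 10 hepatocyte genes summed to 51280 to 122300 CPM (counts scaled to the library's size by the trimmed mean of M-values, TMM) in every library. Red blood cell markers, 4 genes, summed to 372 and 880 CPM in the HB mRNA libraries and to 172 and 176 in the HF ones. Muscle markers, 5 genes, summed to 21.0 CPM in HF RNC replicate 2 and to at most 3.36 elsewhere. Whether these move any result below was not tested.

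In HF livers the large-subunit messages were abundant in total mRNA and almost missing from the RNC fraction. The members took 1.22% and 1.38% of HF mRNA reads and 0.0618% and 0.0688% of HF RNC reads. Every tested member, 50 of 50, had both RNC values below both mRNA values, which was so for 47.8% of all genes tested. In edgeR's quasi-likelihood test 46 of 50 members were lower in RNC than in mRNA and 0 were higher, against 24.7% lower and 3.92% higher among all 12634 genes (unadjusted p under 0.05 for 48 members; DESeq2 called 49 lower and 0 higher). The median log2 ratio of RNC over mRNA was -5.14, or -4.92 with the genes at 0 RNC reads set to the bound that 3 reads allow, and the median of all genes was -0.56. The RNC reads behind these ratios were few: the median member had 34 and 37 reads in the HF RNC libraries, and 13 and 9 of the 53 members had 3 or fewer. Without either HF mRNA library no member passed the adjusted threshold in HF, with 46 of 50 still at an unadjusted p under 0.05. The ratio compares shares of 2 kinds of library, so it says how far these messages stood from the other RNAs of the same fraction, not how many molecules were on ribosomes. Whether both kinds of library were filtered and counted alike is not given in the sources used here, so the fraction and the way its libraries were made cannot be told apart.

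**Figure D1:**
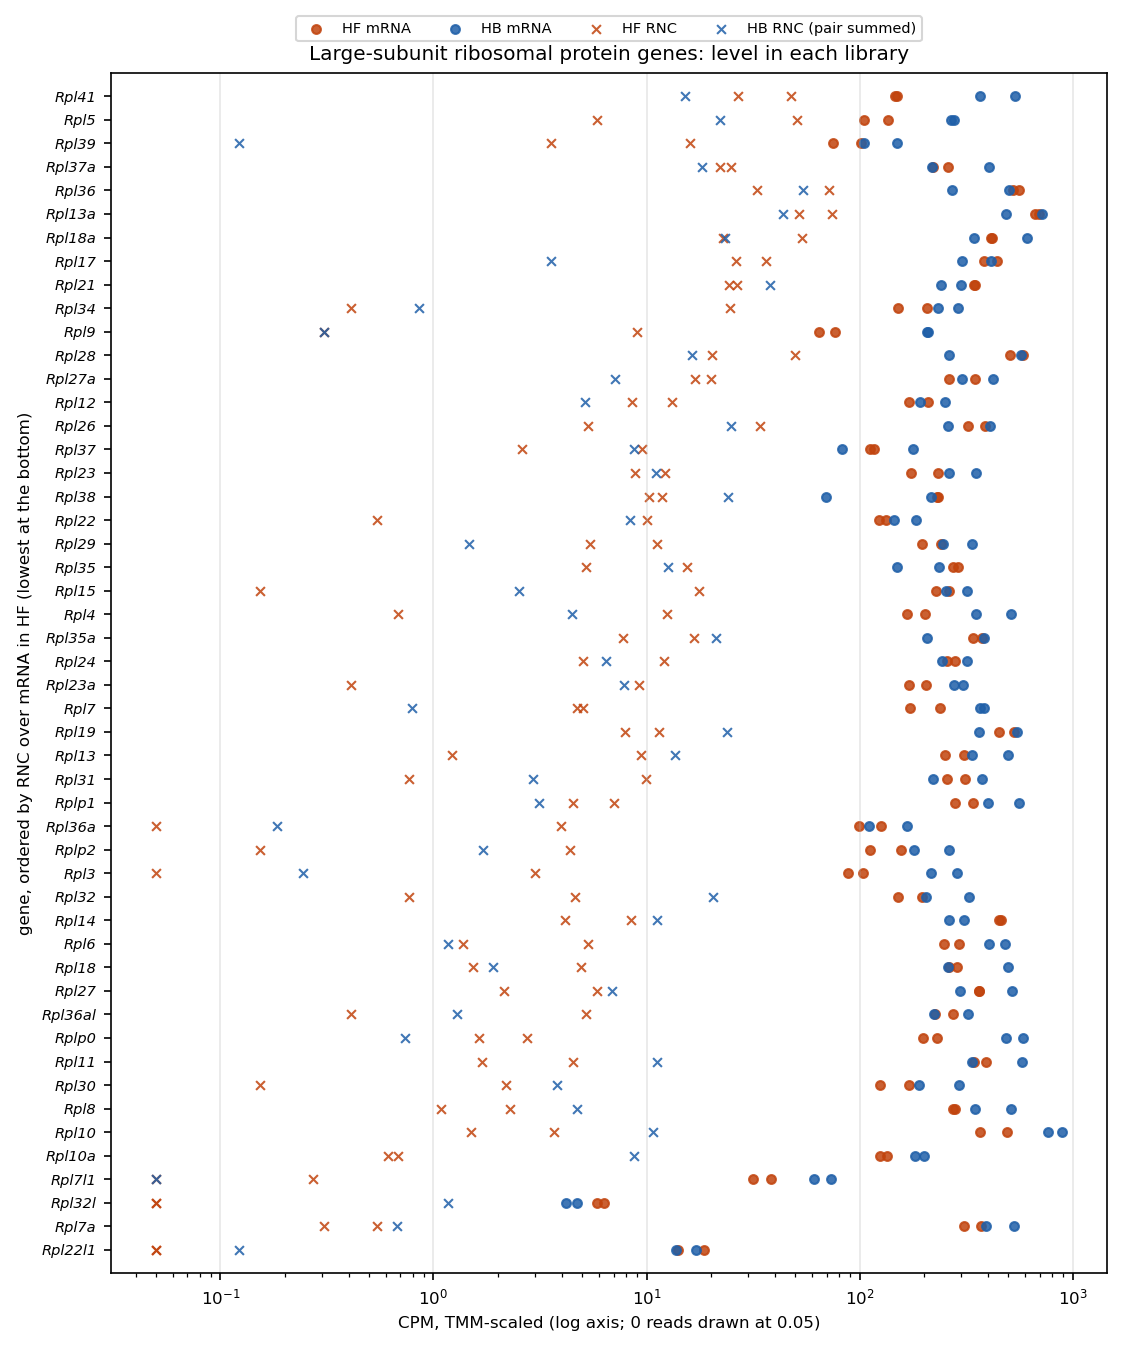
CPM of each tested member (rows, lowest fitted HF ratio at the bottom) in the 4 mRNA libraries (filled points) and in the RNC samples (crosses; HB is the summed pair) on a log axis, HF in red and HB in blue, with 0 reads drawn at 0.05. In all 50 rows the crosses lie left of the points of the same diet.

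Among the stalk proteins, which bring elongation factors to the ribosome, all 4 genes were lower in RNC. Rplp0, the base to which the P1 and P2 proteins attach, stood at 200 and 232 CPM in HF mRNA and at 2.75 and 1.64 in HF RNC. The HF ratio of Rplp0 was -6.62 ± 0.37 (log2, SE), a 98.5-fold difference (adjusted p = 0.0103, n = 2 libraries of each kind, edgeR model). Rplp1 had 7.03 and 4.50 CPM in HF RNC against 280 and 342 in mRNA, with a ratio of -5.76. Rplp2 had 0.153 and 4.36 CPM in RNC, 1 and 32 reads, so its ratio of -5.87 rests largely on replicate 2. Rpl12, the protein at the foot of the stalk, was the least reduced of the 4, with 13.2 and 8.59 CPM in RNC, 171 and 210 in mRNA and a ratio of -4.13 ± 0.35.

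The 3 proteins that reach the peptidyl transferase centre were also lower in RNC in both diets, with a median ratio of -7.36 in HF and -6.51 in HB, where the 4 stalk genes had -5.81 and -7.13; the order of these small groups differs between diets and was not tested. Rpl10, joined to the subunit in a last step of its assembly, had 367 and 490 CPM in HF mRNA and 3.67 and 1.50 in HF RNC, a 167-fold difference. Rpl8 showed the same pattern, 274 and 281 CPM against 2.29 and 1.09, a 165-fold difference, and for both genes the RNC values lay far outside the spread of the mRNA values. Rpl3, the third of this group, had 0 and 22 RNC reads beside 1041 and 1209 mRNA reads; its ratio was -5.95 ± 1.25 (adjusted p = 0.0227, edgeR). The 9 genes of the exit tunnel and its rim were all lower in HF RNC, with a median of -4.76 and a range from -5.71 for Rpl31 to -3.18 for Rpl39.

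Rpl5 and Rpl11, which bind 5S rRNA and, outside the ribosome, hold back the p53 inhibitor MDM2, stood apart from each other. Rpl11 had 345 and 392 CPM in HF mRNA, 1.68 and 4.50 in RNC, and a ratio of -6.88 ± 0.63 (adjusted p = 0.0103, edgeR). Rpl5 had 105 and 136 CPM in mRNA and 50.9 and 5.86 in RNC, 333 and 43 reads, and its ratio of -2.09 ± 0.96 did not pass the test (adjusted p = 0.194). The 2 genes were thus far apart in the HF order, although the replicates of Rpl5 disagreed.

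The bridge protein Rpl41, a very short basic peptide held between the subunits, had the HF ratio nearest to 0. It stood at 151 and 146 CPM in mRNA and 26.9 and 47.7 in RNC, a ratio of -1.99 ± 0.37 (adjusted p = 0.0156, edgeR). Its neighbours in the order, after Rpl5, were Rpl39 (-3.18), Rpl37a (-3.35) and Rpl36 (-3.37), which differ from each other by less than 1 SE. Rpl24, the other bridge gene, was at -4.98 ± 0.51. Among the members with more than 3 reads in HF RNC, Rpl7a and Rpl10a had the lowest ratios. Rpl7a, with 3630 and 4337 mRNA reads, had 2 and 4 RNC reads, a 769-fold difference (-9.59 ± 0.42). Rpl10a, the protein of the L1 stalk where spent tRNA leaves, had 1589 and 1454 mRNA reads and 4 and 5 RNC reads, a ratio of -7.62 ± 0.29. Transcript length had Pearson's r of 0.023 with the HF ratio and -0.20 with the HB ratio across the 50 genes, which share libraries and are not independent replicates.

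The 2 HF RNC libraries gave different values for many single members. The SD of the log2 difference between them was 2.38 over the members, and over all genes it was 3.06. Between mRNA replicates it was 0.152 in HF and 0.406 in HB for the members. The libraries differed by more than 4-fold for 17 of 50 members, and for 29.3% of all genes. Rpl15 had 1 read in HF RNC replicate 1 and 130 in replicate 2, Rpl9 had 2 and 66, and Rpl34 had 161 and 3. These 3 genes and Rpl5 were the 4 members not called in HF: Rpl15 at -4.78 (adjusted p = 0.0837), Rpl9 at -3.91 (0.0770) and Rpl34 at -3.84 (0.136). There was no common direction, since 28 of 50 members were lower in replicate 1. Rpl13a, known for a second role in switching off inflammatory messages, was among the steadier ones at 52.0 and 73.9 CPM in RNC and 665 and 695 in mRNA.

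**Figure D2:**
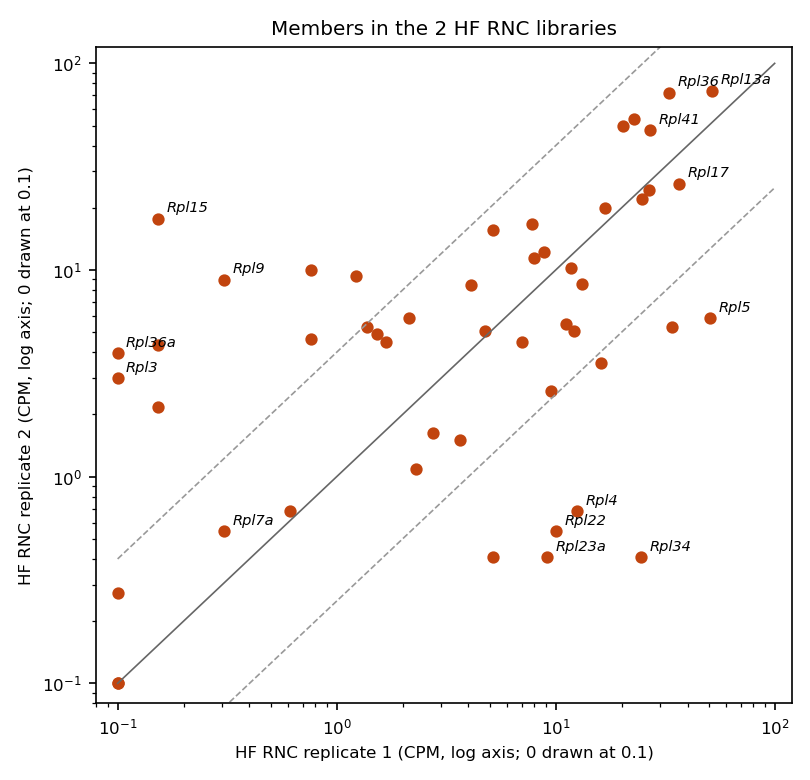
Each point is a member, placed by its CPM in the 2 HF RNC libraries on log axes (0 reads drawn at 0.1); the solid line is equality and the dashed lines a 4-fold difference. Of the 50 members 17 lie outside the dashed lines, among them Rpl15 and Rpl9 above and Rpl34 below.

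With betaine in the diet the members were again nearly absent from RNC. Their share was 1.12% and 1.49% of HB mRNA reads but 0.0553% and 0.0552% of HB RNC reads. The RNC value lay below both mRNA values for 50 of 50 members, as for 58.0% of all genes, and 40 of 50 were called lower and 0 higher, against 22.0% and 6.36% of all genes (edgeR). The median HB ratio was -5.56, with -0.71 for all genes. The HB RNC group entered as 1 sample, so its spread was taken from the other groups; with any of the 4 mRNA libraries left out 0 members were called in HB, with 42 or 43 at an unadjusted p under 0.05, and DESeq2 on the 7 samples called 49. Rpl5 (-3.63, adjusted p = 0.120), Rpl38 (-2.57, 0.0655), a protein known for its part in translating Hox messages, and Rpl32l (-1.93, 0.147) were among the 10 not called. Rpl38 had 69.7 and 217 CPM in HB mRNA and 24.1 in RNC. The 5 ratios nearest to 0 in HB were those of Rpl32l, Rpl38, Rpl21 (-2.83), Rpl36 (-2.84) and Rpl5. By fitted values the lowest were Rpl7l1, Rpl3 (-9.94), Rpl39, Rplp0 (-9.48) and Rpl36a, so that Rpl39 was near the top of the order in HF and near the bottom in HB; Rpl7l1, Rpl39 and Rpl36a had at most 3 RNC reads there. The HB value of Rpl39 rests on 2 RNC reads, 1041-fold lower with a counting interval of 288 to 8598.

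**Figure D3:**
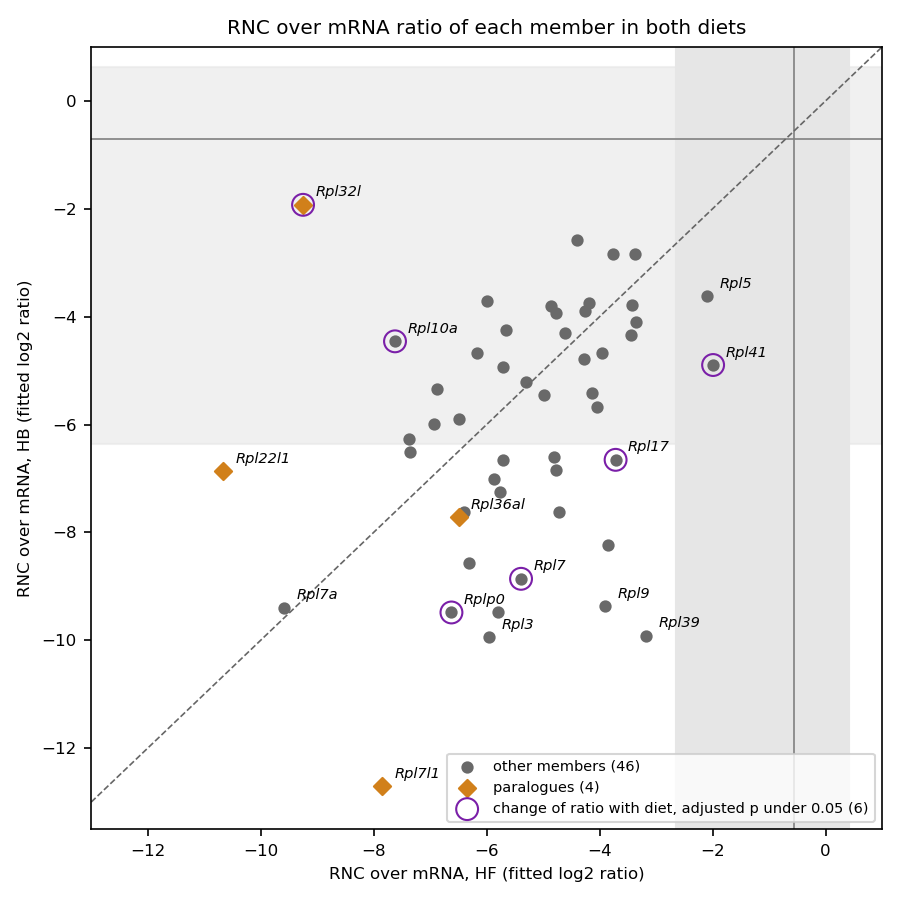
Fitted log2 ratio of RNC over mRNA for each tested member in HF (horizontal) and HB (vertical); diamonds are the 4 paralogues, rings mark the 6 genes whose ratio changed with diet, grey bands span the middle of all genes (first to last quartile) with a line at their median, and the dashed line is equality. All members lie below 0 in both diets; genes at 0 RNC reads (Rpl22l1 and Rpl32l in HF, Rpl7l1 in HB) are drawn at their fitted value, which is no bound.

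Paralogues, copies that in some tissues replace or join the core protein, were lowly expressed. Rpl10l and Rpl39l, known from testis, had 0 reads in all 8 libraries, where a count of 0 allows up to 3 reads. Rpl3l, known from heart and skeletal muscle, had 1, 0, 1 and 4 mRNA reads and no RNC read. The 4 paralogues that could be tested were Rpl7l1, Rpl22l1, Rpl36al and Rpl32l. Per transcript length, Rpl22l1 stood at 34.3 ± 6.23 RPKM (the deposited read count scaled to transcript length and library total; SD, n = 2) in HF mRNA beside 54.7 ± 2.18 for Rpl22, and Rpl7l1 at 13.5 ± 1.62 beside 220 ± 47.0 for Rpl7. Rpl36al was the exception, at 484 ± 57.6 RPKM, above the 231 ± 34.7 of its X-linked partner Rpl36a.

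Of the 4 paralogues, Rpl7l1 and Rpl36al had ratios below the core median in both diets and Rpl22l1 did so in HF. The few reads of the others do not place them: the bound of Rpl32l in HF and the counting interval of Rpl22l1 in HB both reach above that median, and Rpl32l in HB lies above it. In HF, Rpl22l1 had 166 and 218 mRNA reads and 0 RNC reads, at least 75.6-fold lower (floor of 3 reads over the group), and Rpl32l had 69 and 74 mRNA reads and 0 RNC reads, at least 28.15-fold lower. With 2 RNC reads in HB, Rpl22l1 was 126-fold lower there (counting interval 34.9 to 1040). Rpl22 itself had 66 and 4 RNC reads and a ratio of -4.61 ± 1.21 (adjusted p = 0.0451, edgeR). Rpl7l1, a nucleolar relative of Rpl7, had 0 and 2 RNC reads in HF, 243-fold lower (counting interval 67.4 to 2009), and 0 in HB, at least 365-fold lower. Rpl7 itself was 41.9-fold lower in HF and 464.5-fold lower in HB, where the bound of Rpl7l1 does not place it below Rpl7. Rpl36al and Rpl36a were at -6.50 ± 1.09 and -5.80 ± 1.39 in HF and at -7.72 ± 1.58 and -9.48 ± 2.34 in HB, differences that were not tested, and Rpl36a had 3 RNC reads in HB, 755-fold lower (258 to 3659). With the bound in place of fitted values for genes without RNC reads, the paralogue median was -6.37 in HF and -7.29 in HB and the median of the 46 core genes -4.84 and -5.44, differences of -1.53 and -1.86. No test was made of 4 genes against 46, and the paralogues have few reads. Reads of Rpl36a and Rpl36al, of Rpl32 and Rpl32l, whose gene span of 592 bases equals its transcript length, and of many processed pseudogenes can be shared, and the way the counting assigned them is not stated, so single values of these genes are uncertain.

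Some members had more mRNA in HB livers. Fitted on the mRNA libraries alone (edgeR), 8 of 50 members rose in HB and 0 fell, against 11.3% and 10.1% of all 12817 genes. Both HB values lay above both HF values for 24 of 50 members (33.3% of all genes) and below them for 6 (31.6%). Rpl41 went from 151 and 146 CPM in HF to 368 and 538 in HB, a 3.03-fold rise (log2 1.60 ± 0.31, adjusted p = 0.00864). Rpl9, which lies near the foot of the stalk, went from 64.7 and 76.7 to 208 and 210 CPM, a 2.93-fold rise (adjusted p = 0.00741). Rpl3 rose 2.60-fold, from 88.2 and 103 to 286 and 216 CPM. In all 3 genes the diets did not overlap. In whole liver, a change in the share of a cell type and a change of RNA per cell cannot be told apart. Several marker sums also separated the diets in mRNA: beside the red blood cell markers given above (2 of 3 tested genes called higher), the 6 stellate cell markers summed to 228 and 158 CPM in HB against 112 and 107 in HF (1 of 6 called higher). The 5 neutrophil markers summed to 1.94 and 2.54 against 4.32 and 26.1 (2 of 2 tested called lower). The hepatocyte genes summed to 122300 and 117200 against 82830 and 88440 (1 of 10 higher), and the 6 macrophage genes to 245.9 and 234.5 against 222.3 and 230.5 (2 of 6 higher). Their part in the members' changes was not tested.

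The other risers were Rplp0 (2.45-fold, 200 and 232 to 486 and 582 CPM), Rpl4, which lines the tunnel (2.33-fold, 167 and 203 to 515 and 352), and Rpl5 (2.25-fold, 105 and 136 to 278 and 269). Rpl10 (1.92-fold, adjusted p = 0.0453) and Rpl7l1 (1.90-fold, 0.0353) were nearer the threshold (edgeR). Of the 8 genes, 7 belong to the lists used above (1 to the stalk, 2 to the peptidyl transferase region, and 1 each to the tunnel, the bridges, the 5S particle and the paralogues) and Rpl9 to none, while partners such as Rplp1 (log2 0.61 ± 0.31, adjusted p = 0.168) and Rpl11 (0.30 ± 0.33, 0.535) were not called. The median change of the members was 0.36 and that of all genes 0.01. The spread of the members' median between replicates was 0.32 for this contrast. Between mRNA replicates, 46 of 50 members were lower in replicate 1 in HF and 44 of 50 in HB. The share of all genes lower in replicate 1 was not counted. With total counts in place of TMM scaling the median of all genes was -0.28 and that of the members 0.06, and 6 members were called higher and 1 lower. With a length trend removed the split was 7 and 2, and the medians were 0.069 for the members and 0.015 for all genes. The calls also leaned on single libraries: without HF mRNA replicate 1 only Rpl41 stayed called, without HF mRNA replicate 2 Rpl41 and Rpl9, without HB mRNA replicate 1 Rpl3, Rpl41, Rpl9 and Rplp0, and without HB mRNA replicate 2 11 members were called, 7 of them among the 8. The fit of all libraries, which takes in the wider spread of RNC, called 0 of 50 (4 at an unadjusted p under 0.05).

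**Figure D4:**
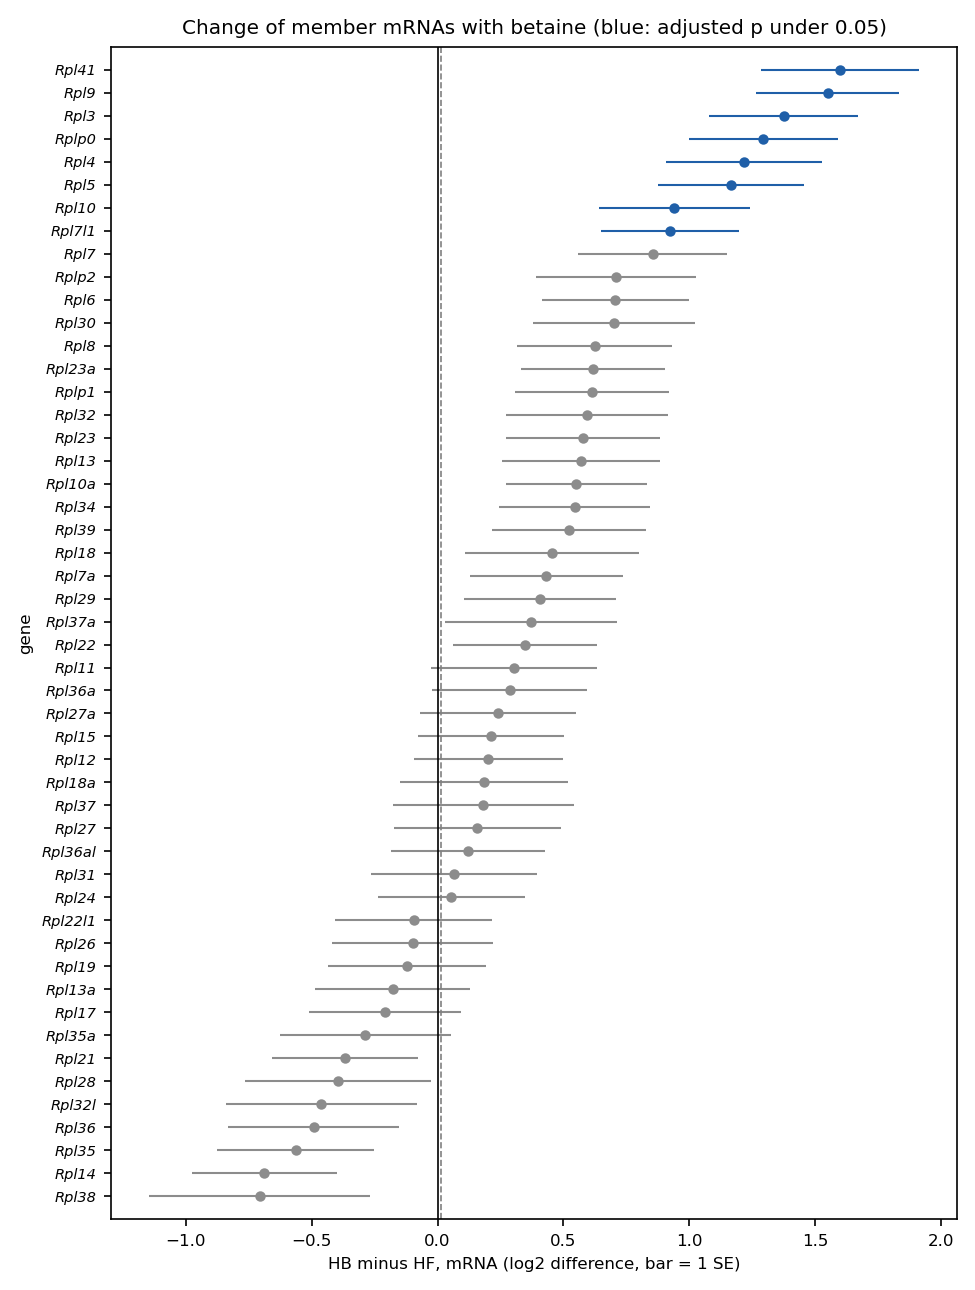
Log2 difference HB minus HF in mRNA for each of the 50 members (points) with 1 SE (bars), from the fit of the 4 mRNA libraries; blue marks an adjusted p under 0.05 and the dashed line the median of all genes. The 8 blue genes lie at the upper end, from 0.92 for Rpl7l1 to 1.60 for Rpl41.

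In the RNC fraction few members changed between diets, and in both directions. In the edgeR model 2 of 50 rose and 2 fell, against 7.61% and 3.94% of all genes, and 15 of 50 had an unadjusted p under 0.05. The HB value lay above both HF values for 16 members (32.3% of all genes) and below both for 13 (20.5%). Rpl10a had 4 and 5 reads in HF RNC and 59 and 83 in the HB pair, that is 0.611 and 0.681 CPM against 8.71 in the sum, a 13.3-fold rise (log2 3.73 ± 0.29, adjusted p = 0.0201). Rpl32l had 0 reads in both HF libraries and 10 and 9 in HB, at least 5.39-fold higher. Rpl32, with which it can share reads, had 5 and 34 HF reads and 156 and 177 HB reads and was not called (adjusted p = 0.135, edgeR). Rpl7 had 31 and 37 HF reads and 4 and 9 HB reads (4.74 and 5.04 against 0.797 CPM), a 6.08-fold fall. Rpl17, which narrows the exit tunnel together with Rpl4, had 239 and 192 HF reads and 23 and 35 HB reads (36.5 and 26.2 against 3.56 CPM), an 8.79-fold fall. All 4 called genes had closely matching HF replicates, and in none did the diets overlap. With HB RNC as 1 sample, the spread within RNC comes from the HF pair alone, so genes with matching HF replicates pass more easily. The match is therefore no separate support for the calls. Rpl39, with 105 and 26 HF reads and 1 in each HB library (16.1 and 3.54 against 0.123 CPM), did not pass (adjusted p = 0.0556).

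The ratio of RNC over mRNA changed with diet in 6 members. It rose in Rpl10a (log2 3.16 ± 0.36) and Rpl32l and fell in Rpl7 (-3.47 ± 0.43), Rpl17 (-2.94 ± 0.48), Rpl41 (-2.91 ± 0.60) and Rplp0 (-2.86 ± 0.53). This is 2 higher and 4 lower of 50, against 6.49% and 4.02% of all genes (edgeR interaction test, adjusted p from 0.0319 to 0.0478). For Rpl41 and Rplp0 the RNC level alone was not called: Rpl41 had 26.9 and 47.7 CPM in HF RNC and 15.2 in HB, and Rplp0 2.75 and 1.64 against 0.736, while their mRNA rose. For Rpl7, Rpl17, Rpl10a and Rpl32l the RNC level itself was called and the mRNA was not. The median change of the ratio was -0.61 for the members and 0.00 for all genes. Leaving out any of the 4 mRNA libraries ended all 4 RNC calls and all 6 ratio calls, with the RNC calls then at an adjusted p from 0.102 to 0.118; leaving out HF RNC replicate 1 or 2 gave 24 and 23 RNC calls and 21 and 23 ratio calls, in fits where no RNC group has a replicate. Without HB RNC replicate 2 the ratio of Rpl41 was no longer called and the other 5 were. The fit of the RNC libraries alone called 0 of 41 members, 0 of them at an unadjusted p under 0.05, while DESeq2 called 14 in RNC and 11 in the ratio.

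Other gene lists place these ratios. All 32 small-subunit genes had enough reads and 30 were lower in RNC in each diet, with medians of -5.93 in HF and -6.28 in HB, a little below those of the large subunit. Of 24 further RNAs known to begin with a TOP tract, 4 were lower and 1 higher in HF, with a median of -0.10. The list holds noncoding RNAs beside messages, and the 1 higher in HF is noncoding. Among those lower were Fau (-3.16), which encodes a ribosomal protein fused to a ubiquitin-like peptide, the helicase Eif4a2 (-1.93) and the elongation factor Eef1a1 (-1.06). The elongation factor Eef2 had 600 and 618 CPM in mRNA and 541 and 650 in RNC in HF (-0.03 ± 0.20), but in HB it had 1548 and 1790 against 335 and was called lower (-2.32 ± 0.27, adjusted p = 0.0181, edgeR). In HF Rack1, a protein that sits on the small subunit, had 234 and 262 against 503 and 378 (0.83 ± 0.27, adjusted p = 0.0816). In HB the same list had 8 lower and 4 higher and a median of -0.82, with noncoding RNAs again among those higher.

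Another set of short messages had ratios near those of all genes. The 76 listed respiratory chain subunits have a median transcript length of 655 bases, against 622 for the small-subunit genes and 775 for the 53 members. Of the 71 subunits tested, 7 were lower and 1 higher in HF (median -0.31). In HB 11 were lower and 4 higher (-0.24). In mRNA 18 of the 71 rose in HB and 0 fell. Of 36 assembly factors of the large subunit, 5 were lower and 5 higher in HF and the median was 0.01; Nop56, a core protein of box C/D particles, had 82.7 and 69.8 CPM in mRNA and 388 and 402 in RNC, and Pes1, needed for processing of the large-subunit rRNA, 21.5 and 24.6 and no RNC read in any library. Of 16 regulators of TOP translation 4 were lower and 0 higher in HF (median -0.32). Larp1, which binds the TOP tract and cap, had 182 and 140 CPM in mRNA and 234 and 232 in RNC in HF, and its mRNA was not called between diets (-0.51, adjusted p = 0.215). Eif4ebp1, the mTOR target that blocks cap-dependent initiation, rose in HB mRNA, from 34.1 and 30.1 to 57.7 and 89.7 CPM (log2 1.19, adjusted p = 0.0208, edgeR).

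**Figure D5:**
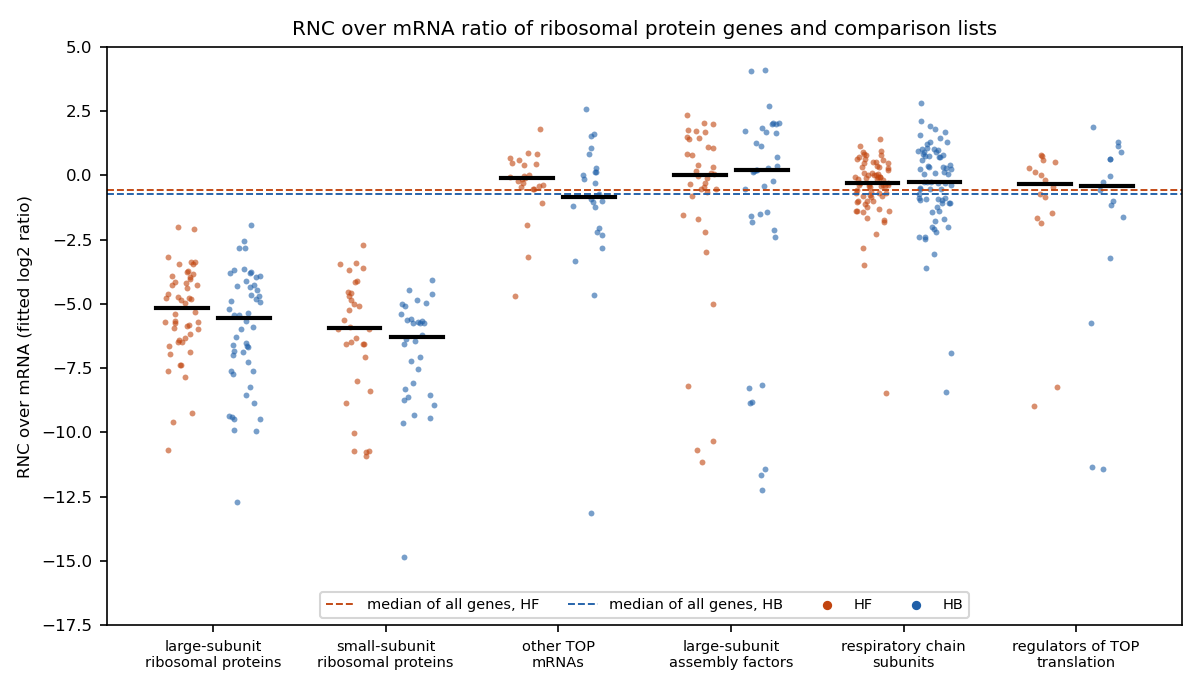
Fitted log2 ratio of RNC over mRNA for the large-subunit members and 5 comparison lists, 1 point per tested gene, HF in red and HB in blue, black bars at list medians and dashed lines at the medians of all genes. Both ribosomal protein lists sit near -5 to -6, and the other 4 lists lie around the medians of all genes.

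Per transcript length the members spanned a wide range in total mRNA. In HF the order began with Rpl36 at 1336 ± 34.8 RPKM (SD, n = 2) and Rpl28 at 1102 ± 93.7, which do not overlap, followed by Rpl35a at 710 ± 39.3. From Rpl35a through Rpl19, Rplp1, Rpl13a and Rpl38 to Rpl26 at 656 ± 77.0 neighbours did not differ beyond their spread. In HB the first places went to Rpl10 (860 ± 58.5), Rplp1 (843 ± 170) and Rpl41 (829 ± 193), also within their spread. Rpl41 moved from place 23 to place 3 of 53 and Rpl38 from 7 to 27, the latter with an SD of 232 on a mean of 332 RPKM in HB. Outside the members, the genes whose log2 CPM over the 7 samples was most like the members' mean were Pigu and Tmem199 (Pearson's r = 0.9991) and Mrps26 (0.999), all of them at or near 0 in RNC.

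Few members carried m6A peaks. Peaks in the authors' lists overlapped, by at least 1 base, 12 and 11 of 49 expressed members in the HF libraries (24.5% and 22.4%) and 11 and 6 in the HB libraries (22.4% and 12.2%). Among all 9334 expressed genes the shares were 62.4% and 67.4% in HF and 63.1% and 61.1% in HB. The members' gene spans are shorter, with a median of 3175 bases against 22565, and the part of length in this gap was not tested. The 6 members with a peak in all 4 libraries were Rpl10a, Rpl24, Rpl29, Rpl30, Rpl36al and Rpl41, 12.2% of members beside 40.5% of all genes. The highest fold enrichments, the authors' own values, were 19.0 and 13.6 in HF and 7.85 and 8.68 in HB for Rpl36al, and 14.1 and 16.1 against 8.28 and 7.84 for Rpl24. Rpl29 had 16.4 and 11.0 in HF and 7.66 and 8.04 in HB. In these 3 genes and in Rpl30 (8.40 and 10.7 against 6.41 and 7.76) both HF values were above both HB values. Rpl10a (7.62 and 7.80 against 9.56 and 8.84) went the other way, and Rpl41 (10.5 and 6.54 against 6.80 and 12.2) overlapped between diets. The share of all genes separated in this way was not counted. Peaks were called in each library separately and their folds were not tested between diets.

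In Rpl24 the shared peak lay at chr16:55971118-55971382 in HF replicate 1, near the 3′ end of a gene that spans chr16:55966275-55971437. In Rpl41 it lay at chr10:128548836-128549102, near the 5′ end of chr10:128548110-128549168, whose start window is printed above. Rpl10a, the gene with the largest RNC rise among those with reads in both diets, had its peak at chr17:28330390-28331029 in HF replicate 1, near its 3′ end, with folds of 7.62 and 7.80 in HF and 9.56 and 8.84 in HB. Rpl7, whose RNC level fell, had a peak in both HF libraries and in HB replicate 1 but none in HB replicate 2. Rplp0 and Rpl9, which rose in mRNA, had no peak in any library.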

How the data were processed

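Reads of poly(A) mRNA were sequenced and mapped to RefSeq RNA, per the labels; the aligner of the mRNA and RNC libraries is not given in the sources used here. The mm10 build, edgeR, HOMER 4.8, MACS2 2.1.0.20151222, cutadapt 1.9.3, HTSeq 0.6.0 and HISAT2 2.0.4 are named in the submitters' processing notes without a role, and the labels' protocols give Trimmomatic 0.36 and TopHat 2.0.13 for m6A. The deposited read count is raw, with splice variants merged. The deposited RPKM divides it by the longest transcript's length and by a library total, per the file headers. The fold enrichment of each peak is a ratio the authors deposited, per library. The m6A inputs were not analysed here.

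Counts were fitted with edgeR 4.0.16 in R 4.3.3 (filterByExpr, TMM, quasi-likelihood F test, Benjamini-Hochberg over all genes, threshold 0.05). One model held 7 samples (12634 genes, 3 residual degrees of freedom, common dispersion 0.464), with the HB RNC pair summed; the mRNA diet contrast used the 4 mRNA libraries alone (12817 genes, 2 degrees of freedom, dispersion 0.0644). No covariate was used. DESeq2 1.42.0 and limma 3.58.1 on log2(RPKM + 1) and log2(RPKM + 0.1), other scalings, filters of none or 5 CPM, a length trend, and leaving out each library were alternatives. A fold against 0 reads uses a floor of 3 reads over the group; bounds and intervals (95%) cover counting error only. The scripts were tested on simulated data.

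The members and gene lists were chosen with earlier results of these data known. Named genes were each paralogue and its parent, the stalk and 5S genes, the 5 highest and 5 lowest ratios per diet, and every member called between diets; others were named after their values were seen. Rpl32l was added to the paralogues after the rows were seen. Coordinates are those of GRCm38.p6, the mm10 assembly. One gene of the TOP list is not reported here by name.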

Additional observations from a re-analysis of the deposited data

Results flagged for a closer look

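The following 6 members were singled out because the test of the difference itself passed an adjusted p of 0.05 in the edgeR model. The difference is the change of the RNC over mRNA ratio between diets. They are 2 higher and 4 lower of the 50 tested, against 6.49% and 4.02% of all genes. The calls leaned on single libraries, as described above. The values, HB minus HF on the log2 scale, were -3.47 for Rpl7, -2.94 for Rpl17, -2.91 for Rpl41, -2.86 for Rplp0, 3.16 for Rpl10a and 7.32 for Rpl32l. The value of Rpl32l, whose reads can be shared with Rpl32, is a fitted one with 0 reads in HF RNC and no bound. From the counts its ratio was at least 7.36-fold higher in HB. Of these genes Rplp0 and Rpl41 rose in mRNA, and Rpl7 had an mRNA change of 0.85 ± 0.30 that did not pass (adjusted p = 0.0608). Rpl29 (-2.90 ± 0.69, adjusted p = 0.0735) and Rpl39, which has 2 HB RNC reads (0.0629), lay just beyond the threshold.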

How the results depend on the processing

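Among the genes named by rule, none reversed under any alternative run, though part of their values were weaker. Between diets only the called members were followed in this way. Genes named after their values were seen were not. For tests in alternative runs, here and above, the share of all genes called is not given, so their counts have no background beside them. In HF, the calls were 0 to 50 with 1 library left out; the median was -4.90 with a minimum of 5 CPM, -5.57 with limma on log2(RPKM + 0.1), and -5.55 to -5.03 with 1 library left out. In HB, calls ranged from 0 to 50 with 1 library left out (medians -5.79 to -5.30), and the median was -5.18 with total counts, -4.86 with limma at a pseudocount of 1 and -5.17 at 0.1. For mRNA between diets, limma at 0.1 called 4, the fit of all libraries 0, and the fits without 1 library 1 to 11 (medians 0.0313 to 0.64). For RNC between diets, DESeq2 called 14, RNC libraries alone 0, the HB RNC pair kept as 2 libraries 14, and fits without 1 library 0 to 24; the median was 0.0475 and 0.0836 with limma at 1 and 0.1 and -0.40 to 0.18 with 1 library left out. For the change of the ratio, DESeq2 called 11, limma at 1 called 3, and fits without 1 library 0 to 23; the median was -0.13 and 0.0246 with limma at 1 and 0.1 and -0.92 to 0.0072 with 1 library left out. At a fold enrichment of at least 10, 4 and 6 members in HF (8.16% and 12.2% of 49) and 0 and 1 in HB (0.0% and 2.04%) had an m6A peak, against 36.5%, 47.8%, 45.1% and 36.9% of expressed genes; without that minimum 6 had one in both HB libraries. Fitted values without bounds, an alternative chosen after seeing the data, put the paralogues -3.71 from the core genes in HF, since 2 of the 4 have 0 RNC reads there.

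Samples of different groups share only a replicate number, and their deviations correlated between -0.11 and 0.07. The HB RNC pair differed by little more than sampling noise, so its deviations could not show a pairing. Whether the replicate numbers pair the samples is not known. With the replicate number as a block and the HB RNC pair kept as 2 libraries, 11 members were called in RNC and 10 in the ratio change; in mRNA the replicate block left 8, and in the ratios 48 (HF) and 49 (HB). Depth limits RNC most, where 8 to 13 members had 3 or fewer reads per library.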
